A study of Mus musculus with 6 samples.

Results

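The metallothioneins and 2 genes that act with them in the response to zinc were chosen by name. They were MT2A, MT1A, MT1E, MT1F, MT1G, MT1M and MT1X, the transcription factor gene MTF1, and SLC30A1, which encodes a zinc exporter of the plasma membrane. Of these 9 genes, 8 were found among the 39234 genes of the count table, and MT1A was not analysed here. MT1G had no count in any library, so 7 of the 9 genes could be tested. RNA was sequenced from HK-2 cells, an immortalized epithelial line from human proximal tubule, with 3 control samples and 3 samples that overexpressed USAG-1. USAG-1 is a secreted antagonist of bone morphogenetic proteins and is encoded by SOSTDC1. The labels give the genotype of both groups as WT, and the methods of the study describe overexpression by transient plasmid transfection in cells whose identity was not authenticated by STR typing. The labels do not say whether the control cells received empty vector. They give mouse as the organism, whereas the gene identifiers and the cell line are human.

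Metallothioneins are small proteins very rich in cysteine, whose sulphur atoms bind zinc, copper and cadmium and also react with oxidants. Free zinc in the cell activates MTF1, which binds metal response elements in the promoters of metallothionein genes and of SLC30A1 and raises their transcription. Glucocorticoids and oxidative stress also raise metallothionein transcription. In the kidney, the proximal tubule takes up and stores metals bound to metallothionein.

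Counts summed to between 41236194 and 48699471 in the 6 libraries, and levels are given in CPM, the counts of a gene per 1000000 counts of its library, with library sizes adjusted by edgeR's TMM method. At this depth 3 counts, the limit that a count of 0 allows, correspond to 0.0608 to 0.0719 CPM. Such limits cover counting error only. SOSTDC1 had 60 to 80 counts in the control libraries and 3907 to 5072 counts with USAG-1 overexpression. Control replicate 3 stood apart from the other controls, with a chi-square per degree of freedom of 42.3 and 42.7 against them, where the other pairs within a group gave 6.52 to 8.35. Each result for a member is therefore also given without that library. Mitochondrially encoded genes held 4.80% to 5.59% of the counts in control libraries and at most 1.55% with USAG-1 overexpression. Of 16 epithelial and proximal tubule markers, 11 were tested, 3 rose and 0 fell. Over all genes tested, 8.95% were called higher and 6.91% lower. With 1 library left out, 0 to 6 of these markers were called higher. The number was 6 without control replicate 3, 1 without control replicate 2 or USAG-1 overexpression replicate 2, and 0 without USAG-1 overexpression replicate 1 or 3. The genes called over the whole table also moved, from 2884 with all libraries to 5091 without control replicate 3. Without 1 library with USAG-1 overexpression they came to between 1137 and 1347. PAX8 was at 365 to 455 CPM and KRT8 at 971 to 1277 CPM over the 6 libraries. In contrast, LRP2, the endocytic receptor megalin of the proximal tubule, had no count. CUBN, AQP1, PAX2 and the epithelial cadherin gene CDH1 had at most 15 counts in a library. These low markers, LRP2 among them, were the ones that were not tested. All 16 markers of T and NK cells were called lower with USAG-1 overexpression, beside 6.91% of all genes tested. Their summed level was 109 to 133 CPM in control libraries and 12.7 to 17.0 CPM in the others.

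All 5 metallothioneins tested fell in USAG-1-overexpressing cells. Among all 18188 genes tested, 6.91% were called lower and 8.95% higher by edgeR's quasi-likelihood test with a false discovery rate of 0.05 (Benjamini-Hochberg over all genes tested), 15.9% in both directions. All adjusted p-values below are from this fit. In each of the 5 genes the lowest control library lay above the highest library with USAG-1 overexpression. Over all genes tested, 18.1% had groups apart in this direction. The counts of the metallothioneins together came to 542, 527 and 524 CPM in control replicates 1, 2 and 3, and to 405, 339 and 391 CPM in replicates 1, 2 and 3 with USAG-1 overexpression. The mean of this sum fell by 28.8%, from 531 ± 9.49 to 378 ± 34.9 CPM (SD, n = 3 each). The members are close copies of one another, and how reads shared between copies were counted is not given in the sources used here. The split between members is therefore uncertain. The sum does not depend on that split, but it would miss shared reads that were discarded or counted at other copies. T and NK cell markers moved in the same direction in the same libraries (109 to 133 against 12.7 to 17.0 CPM in sum). CD2, GZMA and CD3D were each at 0 in 1 library with USAG-1 overexpression. The samples are labelled only as HK-2 cells, and whether T or NK cells were present was not tested. Any part of such cells in the fall of the metallothioneins was not tested either. In bulk RNA, fewer cells of a type and less RNA per cell cannot be told apart.

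**Figure D1:**
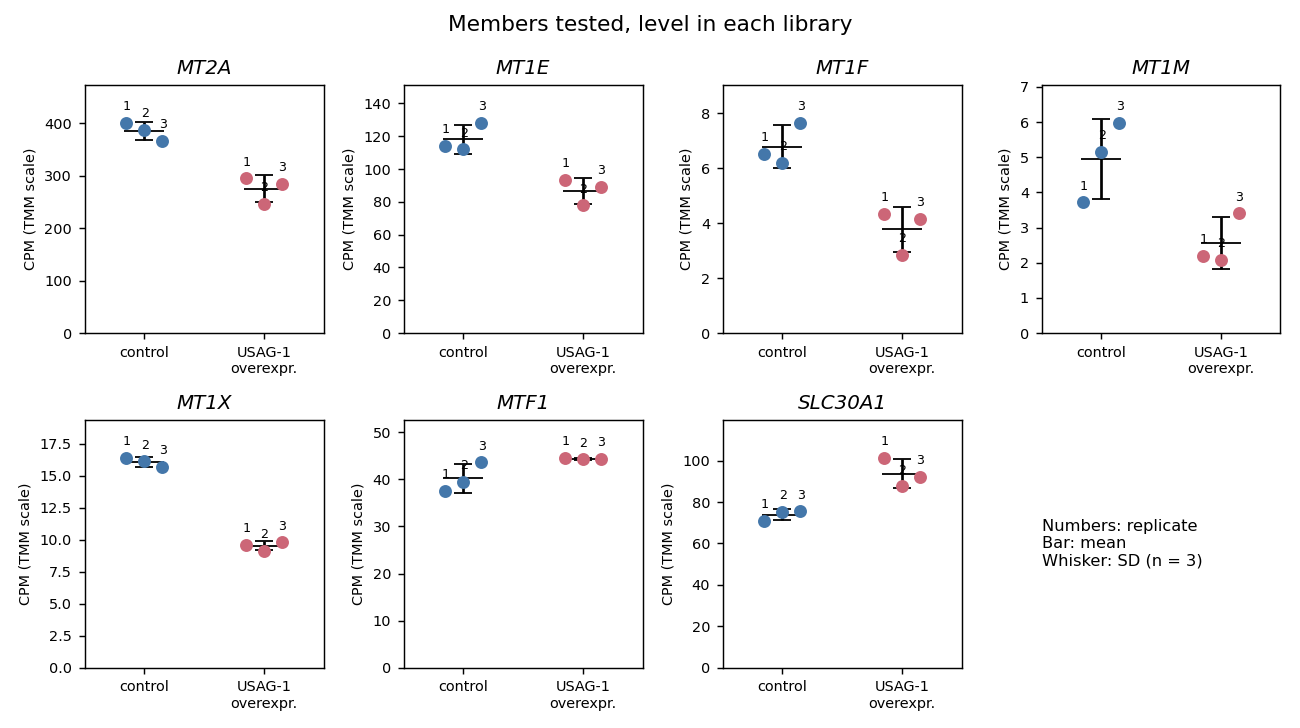
Level of each of the 7 genes tested in every library, in CPM on the TMM scale, with control libraries in blue, USAG-1-overexpressing libraries in red, the replicate number above each point, and the mean and SD (n = 3) as black bars. All 5 metallothioneins sit lower with USAG-1 overexpression, SLC30A1 sits higher (70.8 to 75.5 against 87.7 to 101.5 CPM), and MTF1 stays between 37.6 and 44.6 CPM.

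MT2A (ENSG00000125148; chromosome 16, 56608584 to 56609497, plus strand) encodes the metallothionein that most human cell types express. Its level was 401, 388 and 367 CPM in the 3 control libraries and 295, 247 and 285 CPM in the 3 libraries with USAG-1 overexpression. The groups did not overlap, and replicate 2 with USAG-1 overexpression was the lowest of all. The log2 fold change was -0.48 (SE 0.08, n = 3 each, 95% interval -0.66 to -0.31, edgeR adjusted p = 0.00538). Without control replicate 3 it was -0.51 (edgeR adjusted p = 0.000715).

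MT1E (ENSG00000169715; chromosome 16, 56625475 to 56627112, plus strand) is a member of the MT1 group, whose proteins bind metals in the same way as MT2A. It was at 114, 112 and 128 CPM in control cells and at 93.3, 77.9 and 89.0 CPM in USAG-1-overexpressing cells. Control replicate 3 was the highest library for MT1E, whereas it was the lowest control for MT2A. The log2 fold change was -0.45 (SE 0.09, 95% interval -0.64 to -0.25, edgeR adjusted p = 0.0116) and -0.38 without control replicate 3 (edgeR adjusted p = 0.00431). The call was lost without USAG-1 overexpression replicate 2 (-0.37, edgeR adjusted p = 0.0550) or replicate 3 (-0.46, edgeR adjusted p = 0.0509).

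MT1X (ENSG00000187193; chromosome 16, 56682470 to 56684196, plus strand) had the smallest p of the members, at rank 308 of the 18188 genes tested. Control libraries had 16.4, 16.1 and 15.7 CPM, and USAG-1-overexpressing libraries had 9.60, 9.11 and 9.80 CPM. The spread within each group was small beside the gap between them (SD 0.374 and 0.354 CPM, n = 3 each), and the mean fell by 40.8%. The log2 fold change of -0.76 (SE 0.09, 95% interval -0.97 to -0.54, edgeR adjusted p = 0.00186) was -0.77 without control replicate 3 (edgeR adjusted p = 0.000655).

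MT1F (ENSG00000198417; chromosome 16, 56657731 to 56660698, plus strand) was at 6.52, 6.18 and 7.64 CPM in control cells and at 4.33, 2.84 and 4.15 CPM with USAG-1 overexpression, from 124 to 326 counts in a library. Its log2 fold change was -0.84 (SE 0.19, 95% interval -1.29 to -0.40, edgeR adjusted p = 0.0233) and -0.74 without control replicate 3 (edgeR adjusted p = 0.0265). The fall was called with all 6 libraries and lost without control replicate 1 (edgeR adjusted p = 0.0553) or without USAG-1 overexpression replicate 1, 2 or 3 (edgeR adjusted p = 0.0502, 0.0698 and 0.0646).

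MT1M (ENSG00000205364; chromosome 16, 56632659 to 56633981, plus strand) had the fewest counts of the members tested, 91 to 255 in a library. Its control libraries were at 3.71, 5.15 and 5.98 CPM and its USAG-1-overexpressing libraries at 2.20, 2.08 and 3.41 CPM. Control replicate 1 and USAG-1 overexpression replicate 3 lay close together, so that the groups were barely apart. The log2 fold change was -0.95 (SE 0.26, 95% interval -1.54 to -0.36, edgeR adjusted p = 0.0409). Without control replicate 3 it was -0.78 and no longer called (edgeR adjusted p = 0.0554), and the call was also lost without control replicate 2 (edgeR adjusted p = 0.107) and without USAG-1 overexpression replicate 1 or 2 (edgeR adjusted p = 0.145 and 0.154).

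MT1G (ENSG00000125144; chromosome 16, 56666730 to 56668065), which lies on the minus strand between MT1F and MT1X, had 0 counts in all 6 libraries, which allows up to 0.0608 to 0.0719 CPM. Beyond the members, 7 of 14 other metallothionein genes and pseudogenes were found in the table. MT1P1, MT1P3 and MT2P1, which are pseudogenes outside the cluster, had at most 5 counts in a library, and MT3, MT1L, MT1HL1 and MT1XP1 had none. None of these could be tested, and with them the log2 ratio of the sum stayed at -0.49.

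The members also differed in how evenly they fell. MT2A held 73.6% to 74.0% of the metallothionein counts in control replicates 1 and 2, 70.0% in control replicate 3, and 72.8% to 73.0% in the libraries with USAG-1 overexpression. MT1E held 21.1% to 24.4% in control cells and 22.7% to 23.1% in USAG-1-overexpressing cells, so that the shares of these 2 genes overlapped between the groups. The share of MT1X was 2.99% to 3.06% in control cells and 2.37% to 2.69% in USAG-1-overexpressing cells, without overlap. For MT1F the shares were 1.17% to 1.46% and 0.839% to 1.07%, and for MT1M they were 0.685% to 1.14% and 0.544% to 0.870%. These are shares of counts, not of molecules, since transcript lengths were not used, and the differences between shares were not tested. Within the USAG-1-overexpressing group, replicate 2 was the lowest library for all 5 metallothioneins tested. Within the control group, replicate 3 was the lowest for MT2A and MT1X and the highest for MT1E, MT1F and MT1M.

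The regulator MTF1 did not pass the test. MTF1 (ENSG00000188786; chromosome 1, 37809574 to 37859592, minus strand) was at 37.6, 39.4 and 43.6 CPM in control cells and at 44.6, 44.2 and 44.3 CPM in USAG-1-overexpressing cells. The libraries with USAG-1 overexpression were nearly equal and lay just above control replicate 3. The log2 fold change was 0.14 (SE 0.07, 95% interval -0.02 to 0.31, edgeR adjusted p = 0.224). Without control replicate 3 it was 0.21 and was called (edgeR adjusted p = 0.0148), so that this library decided the call. The fit without that library also called more genes over the whole table, 5091 against 2884 with all libraries.

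SLC30A1 (ENSG00000170385; chromosome 1, 211571568 to 211579161, minus strand), the exporter whose gene MTF1 activates together with the metallothionein genes, rose. It had 70.8, 75.2 and 75.5 CPM in control cells and 101.5, 87.7 and 92.2 CPM in USAG-1-overexpressing cells. All USAG-1-overexpressing libraries lay above all controls, as was the case in this direction for 19.4% of all genes tested. The log2 fold change was 0.34 (SE 0.07, 95% interval 0.18 to 0.51, edgeR adjusted p = 0.0150) and 0.37 without control replicate 3 (edgeR adjusted p = 0.00327). The call was lost without control replicate 1 (edgeR adjusted p = 0.0534) and without USAG-1 overexpression replicate 1 or 3 (edgeR adjusted p = 0.0697 and 0.0576). Between the groups, SLC30A1 thus moved opposite to the metallothioneins, and this opposite direction was kept in every setting in which these genes were tested. Within the USAG-1-overexpressing group it was not opposite library by library. Replicate 2 was the lowest for SLC30A1, as it was for all 5 metallothioneins tested.

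Other transporters that move zinc were taken as whole families. SLC30 proteins carry zinc out of the cytosol, into organelles or out of the cell, and SLC39 proteins carry it in. Of 9 other SLC30 genes, 6 were tested, 0 rose and 1 fell, where 8.95% of all genes tested were called higher and 6.91% lower. With 6 genes, these counts are not far from those shares. SLC30A7, which encodes a zinc transporter of the Golgi and secretory pathway, had 53.1, 55.8 and 51.5 CPM in control cells and 42.7, 40.2 and 39.9 CPM in USAG-1-overexpressing cells. The change was -0.38 on the log2 scale (SE 0.06, edgeR adjusted p = 0.00608), and it was called in all 14 alternative settings. For SLC30A6, also of the Golgi, the log2 fold change was 0.23 (edgeR adjusted p = 0.0541). It was called without control replicate 3 (0.29, edgeR adjusted p = 0.00347) and with library sizes alone as the scaling (0.25, edgeR adjusted p = 0.0284). The fit without control replicate 3 also called more genes over the whole table. The median over the 6 genes was 0.04, beside -0.02 over all genes tested.

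Of 14 SLC39 genes, 11 were tested, 2 rose and 0 fell, with a median log2 fold change of 0.06. Without control replicate 3, 6 of them were called higher, and without control replicate 1 or 2 or USAG-1 overexpression replicate 1 or 2 the number was 1. Over the whole table, 2985 of 18866 genes tested were called higher without control replicate 3, against 1628 of 18188 with all libraries. SLC39A10, an importer of the plasma membrane whose gene MTF1 is known to hold down when zinc is plentiful, was at 59.2, 61.3 and 59.3 CPM in control cells and at 96.7, 88.2 and 88.2 CPM in USAG-1-overexpressing cells. Its groups lay far apart, and its log2 fold change of 0.60 (SE 0.06, edgeR adjusted p = 0.000991) was called in all 14 alternative settings. SLC39A8, an importer of zinc, manganese and cadmium, was at 46.7 to 47.9 CPM in control cells and at 55.3 to 59.7 CPM with USAG-1 overexpression (log2 fold change 0.28, SE 0.06, edgeR adjusted p = 0.0166). Its call was lost in 4 of the 14 settings, each with 1 library left out. The other 9 SLC39 genes tested had log2 fold changes between -0.38 and 0.18.

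**Figure D2:**
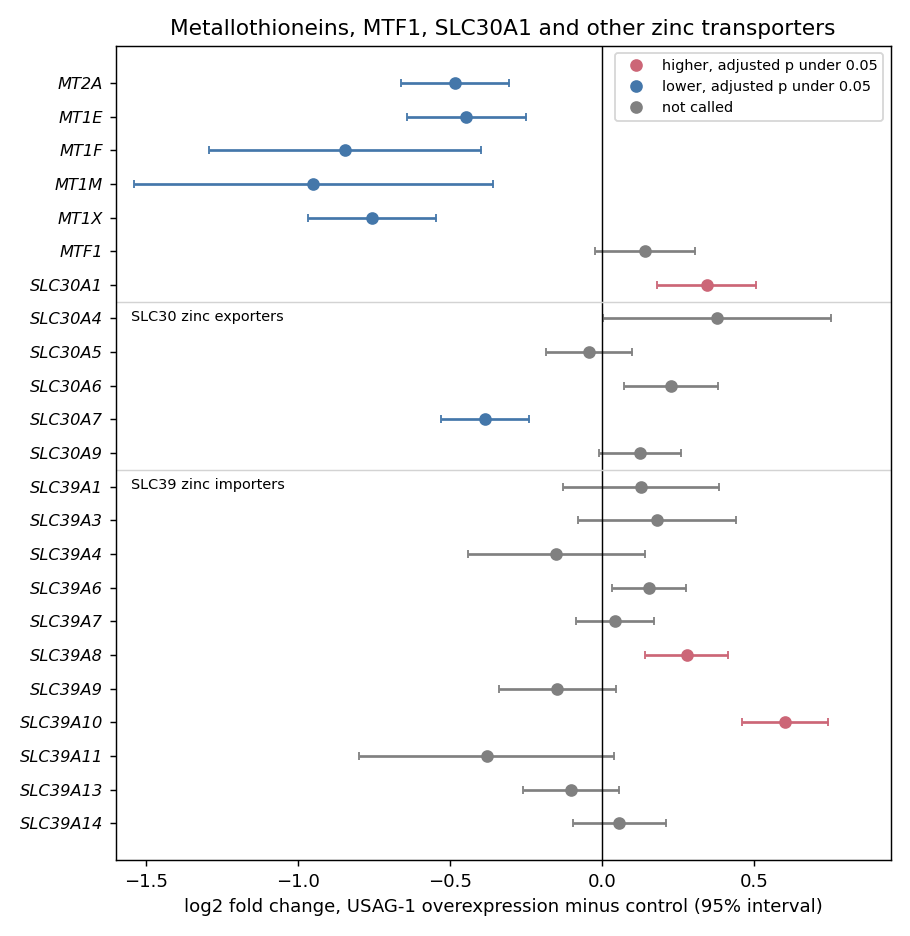
Log2 fold change of USAG-1 overexpression minus control with its unadjusted 95% interval for the 7 members tested and for the other SLC30 and SLC39 genes tested with a mean of at least 1 CPM in either group. The 5 metallothioneins and SLC30A7 lie to the left of 0, SLC30A1, SLC39A8 and SLC39A10 to the right, and grey genes were not called.

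Genes outside the zinc families were described as lists, drawn up from general knowledge of metal and glucocorticoid responses. Of 13 copper handling genes tested, 1 rose and 1 fell, with a median log2 fold change of -0.05. ATP7B, a copper-exporting ATPase, had a log2 fold change of 0.68 (edgeR adjusted p = 0.0337) and SCO1, a copper chaperone of mitochondria, one of -0.30 (edgeR adjusted p = 0.0311), and each lost its call in 6 of 14 settings. Leaving out control replicate 3 gave 2 copper handling genes called higher. In that fit 2985 of the 18866 genes tested were called higher and 2106 lower, against 1628 and 1256 of 18188 with all libraries. Of 9 genes listed for heavy-metal stress, which include general chaperones, 1 rose and 4 fell, with a median of -0.24. The number called higher was 2 without control replicate 3. HMOX1, heme oxygenase and a classical gene of cadmium and oxidative stress, rose by 0.35 on the log2 scale (edgeR adjusted p = 0.0314) and lost its call in 6 of 14 settings. HSPA8, HSPA1A and HSPA1B, chaperones of the HSP70 family, had log2 fold changes of -0.54, -0.61 and -0.64 and fell in all 14 settings, and HSPA1A and HSPA1B are near-identical copies that the counting could split. SELENOH, a selenoprotein gene with metal response elements, had a log2 fold change of -0.38 (edgeR adjusted p = 0.0360) and lost its call in 6 of 14 settings. Of 9 genes of the glucocorticoid response, 1 rose (PER1, log2 fold change 1.10) and 1 fell (SGK1, -0.38), with a median of 0.01. Of these 9 genes, 3 were called higher and 3 lower without control replicate 3. FKBP5 and TSC22D3, which glucocorticoids induce strongly, had -0.15 (edgeR adjusted p = 0.169) and 0.18 (edgeR adjusted p = 0.141).

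The metallothioneins tested lie together in 75.6 kb of chromosome 16, from 56608584 to 56684196. All positions are those of the deposited table, and the processing notes of the submitters name hg38. Within 200 kb of this stretch on either side, a window chosen after the values of the members were seen, 7 other genes were tested. Of these, 0 were called higher or lower, the smallest adjusted p being 0.189 (edgeR), beside 15.9% called over all genes tested. Among 7 genes, a count of 0 is not far from that share. The groups of NUDT21 lay apart, lower with USAG-1 overexpression (log2 fold change -0.12, 95% interval -0.24 to 0.01). So did those of 18.1% of all genes tested. NUP93, a nuclear pore gene downstream of MT1X, had a log2 fold change of 0.02. BBS2 and OGFOD1, the nearest protein-coding genes upstream of MT2A that were tested, had 0.01 and 0.03. ENSG00000260823, on the minus strand inside the cluster (56609501 to 56611375) with its end beside that of MT2A, was at 0.378 ± 0.0998 CPM in control cells and at 0.296 ± 0.107 CPM in the others (SD, n = 3 each), with a 95% interval of -1.49 to 0.77 for its log2 fold change. Of the members, MTF1 alone overlapped another gene of the table, and that gene had no count.

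**Figure D3:**
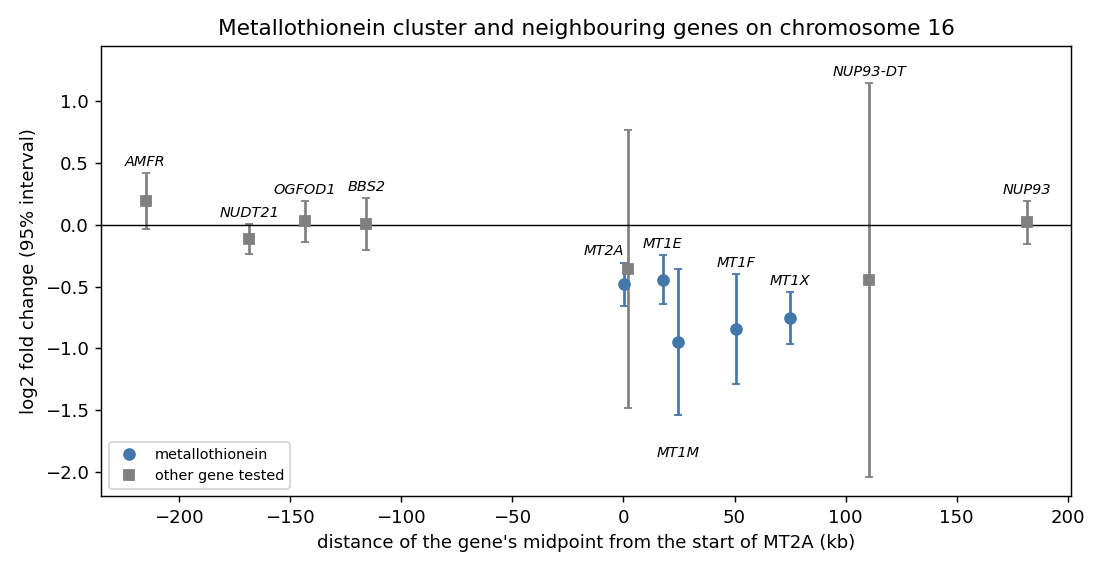
Log2 fold change with its unadjusted 95% interval against the distance in kb from the start of MT2A, for the metallothioneins tested (blue circles) and the 7 other genes tested in and around the cluster (grey squares; the unnamed square is ENSG00000260823). The 5 metallothioneins lie below 0 with their whole interval, and the intervals of all 7 other genes include 0.

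Among 11095 genes with a symbol and a mean of at least 5 CPM, those whose log2 CPM ran most like that of MT2A over the 6 libraries were TM2D1 (Pearson r = 0.994), RALA (0.994), HOXA7 (0.994), AARS2 (0.989) and STAG3L1 (0.989). Their log2 fold changes were -0.62, -0.32, -0.52, -0.19 and -0.23, and those of AARS2 and STAG3L1 were not called. For SLC30A1 the closest were MGST1 (r = 0.990), YME1L1 (0.988), GFOD1 (0.987), RFFL (0.985) and SNTB1 (0.983), with log2 fold changes of 0.27, 0.17, 0.42, 0.24 and 0.38, and those of YME1L1 and RFFL were not called. These correlations are descriptions over 6 libraries that fall into 2 groups, so the difference between the groups sets most of each r.

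**Figure D4:**
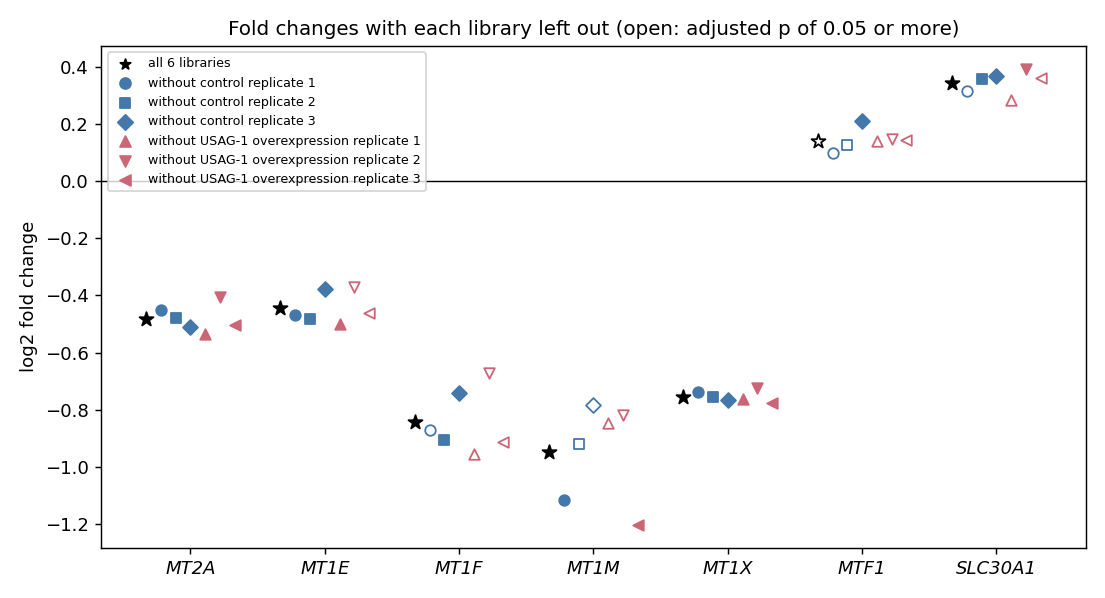
Log2 fold change of each member tested with all 6 libraries (black stars) and with each library left out in turn (blue, a control left out; red, a USAG-1-overexpressing library left out), where open symbols have an adjusted p of 0.05 or more. Symbols of MT2A (-0.53 to -0.41) and MT1X (-0.78 to -0.72) are all filled, those of MT1M spread from -1.20 to -0.78, and no member changes side.

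The direction of all 7 genes tested was kept in each of 14 alternative settings. MT2A and MT1X were called lower in all 14, with log2 fold changes of -0.53 to -0.41 and -0.78 to -0.72. The number of members called was 6 with all libraries and 3 without USAG-1 overexpression replicate 1, 2 or 3, and the number of all genes called fell at the same time from 2884 to between 1137 and 1347. In these 3 fits MT2A and MT1X were called, and the other call was MT1E, SLC30A1 or MT1M.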

How the data were processed

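The labels describe RNA of HK-2 cells selected with oligo(dT) beads, dUTP strand-specific libraries and paired reads, although the series' design text speaks of ribosomal RNA removal. The submitters' processing notes name cutadapt 1.9, FastQC and hg38. The aligner, the counting tool and the annotation are not given in the sources used here. The authors deposited 1 table of whole-number counts per gene, 1 column per library and not normalized, under a name that speaks of FPKM, and the columns were used as counts. Groups and replicate numbers come from the sample titles, which do not say whether libraries are separate cultures, so p-values measure the spread between these samples.

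Genes were filtered with filterByExpr (18188 of 39234 tested), scaled by TMM and tested two-sided with the quasi-likelihood test of edgeR 4.0.16 (R 4.3.3), with Benjamini-Hochberg adjustment over all genes tested and a threshold of 0.05. Standard errors (SE) were obtained from the quasi-likelihood F statistic, as the size of the log2 fold change over the root of F. DESeq2 1.42.0 and limma-voom 3.58.1 served as alternatives, beside other scalings and filters, a replicate block and the removal of each library. The methods of the study name DESeq2 after listing public datasets. They do not say which tool was used for these libraries. The code was tested on simulated data. The members and all lists were chosen with earlier results of these data known. Every member was named, together with up to 4 called genes of each list, and the 5 genes closest to MT2A and to SLC30A1 by Pearson correlation of log2 CPM (prior count 2). Any other gene was named after its values were seen.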

Additional observations from a re-analysis of the deposited data

How the results depend on the processing

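With DESeq2's size factors or no scaling factors, with limma-voom or the Wald test of DESeq2, with a replicate block, with a minimum of 10 counts per library and without mitochondrially encoded genes, 6 members were called, 1 higher and 5 lower. Without the filter on low counts, MT1M was lost (adjusted p = 0.0868). With 1 library left out, the members called ranged from 3 to 6, those called higher from 0 to 2 and those called lower from 2 to 4. The genes called over the whole table ranged from 1137 to 5091, with 630 to 2985 higher and 507 to 2106 lower. The log2 ratio of the metallothionein sum was -0.49 and lay between -0.54 and -0.42 with a library left out. With the replicate number as a block, 2381 genes were called, and the 6 members called were those called without it. Same-numbered libraries had correlations of their deviations from the group means of 0.07, -0.05 and 0.04, so the numbers were not taken to pair the samples, and not every library correlated best with its own number. Of 98 values of the members under alternatives, 83 stayed on their side of the threshold, 14 lost the call, 1 gained it and 0 changed direction. Of 224 counts of called genes in the lists other than the members under alternatives, 34 differed from the count with all libraries by more than 1.5 times. At this depth MT1G could not be tested.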
